A study of Mus musculus with 10 samples.

Results

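The mitochondrially encoded RNAs are the transcripts of the small circular genome that mitochondria keep for themselves. They were taken as every row of the deposited table whose Ensembl ID maps to a mouse symbol starting with mt-, which gave 23 of the 16154 genes listed. These 23 are both ribosomal RNAs, all 12 messenger RNAs of the heavy strand group, the 1 messenger RNA of the light strand (mt-Nd6) and 8 of the 22 transfer RNAs annotated on the mitochondrial chromosome. No row of the deposited table maps to a symbol of the other 14 transfer RNAs. All 23 members reached the filter on low values used for testing, at least 1 normalized count per M in at least 5 libraries.

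RNA came from alveolar type II (AT2) cells, epithelial cells that make lung surfactant, which had been sorted from C57BL/6 mice aged 8 to 10 weeks. The 5 libraries labelled HOILKO (replicates 1 to 5) carry the genotype label HOIL-1L -/-, while the series' design text gives floxed HOIL-1L alleles with Cre driven by the SPC promoter, which is active in AT2 cells. The 5 libraries labelled WT (replicates 2 to 6) are wild type. HOIL-1L, the product of Rbck1, belongs to the complex that builds linear ubiquitin chains. Each title carries its own mouse number, and the numbers fall into a first run (HOILKO 1 to 3, WT 2 and 3) and a second run (HOILKO 4 and 5, WT 4 to 6), which the labels do not call batches. The letter N in every title is not explained. The RNA is labelled as polyA RNA.

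Both strands of the mitochondrial genome are transcribed as long precursors, which are cut mostly at the transfer RNAs between the other genes. The messenger RNAs encode subunits of respiratory complexes I, III and IV and of ATP synthase, and the ribosomal and transfer RNAs serve their translation inside the organelle. Most of these messenger RNAs receive short A tails, the light-strand ND6 RNA being the known exception in human cells, and the transfer RNAs receive a CCA end instead. AT2 cells are rich in mitochondria.

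Several neighbours overlap, and a nuclear copy of one member differs from it by a single base. The following sequences show these places, because they bear on which reads can be assigned to which gene. They are given 5′ to 3′ from GENCODE release M21 transcripts (GRCm38). In the first pair the capital marks the only base that differs over 345 aligned bases, T3C, counted from the first base of mt-Nd3 and naming the mt-Nd3 base first. mt-Nd3 lies at chrM:9459-9518 for the stretch shown (plus strand) and its copy Gm28438 at chr1:24613060-24613119 (minus strand).
mt-Nd3: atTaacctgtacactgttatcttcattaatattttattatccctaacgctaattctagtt
Gm28438: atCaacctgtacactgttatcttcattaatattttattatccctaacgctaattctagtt
The end of mt-Atp8 (chrM:7897-7969, plus strand) holds in capitals the 43 bases that are also the start of mt-Atp6, and the join of mt-Nd4l and mt-Nd4 (chrM:10137-10203, plus strand) holds in capitals the 7 bases that both share.
mt-Atp8 end: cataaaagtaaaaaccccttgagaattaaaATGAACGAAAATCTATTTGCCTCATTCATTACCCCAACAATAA
mt-Nd4l to mt-Nd4: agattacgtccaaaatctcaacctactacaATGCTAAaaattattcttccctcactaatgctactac
The transfer RNAs with the highest levels were mt-Te, which carries glutamate (chrM:14071-14139, minus strand), and mt-Tp, which carries proline (chrM:15356-15422, minus strand). Both genes are shown in the sense of the transfer RNA with the anticodon in capitals, and neither shows the CCA end, which is added after transcription.
mt-Te: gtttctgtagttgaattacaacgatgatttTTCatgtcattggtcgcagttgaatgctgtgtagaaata
mt-Tp: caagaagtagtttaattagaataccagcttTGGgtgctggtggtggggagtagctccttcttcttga

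Before the results, the targeted gene was read in every library. Rbck1 stood at 59.3, 29.8, 36.4, 37.97 and 38.8 per M in HOILKO 1 to 5, against 29.7, 56.7, 57.8, 56.1 and 56.6 per M in WT 2 to 6. The library labelled HOILKO 1 therefore lay with WT 3 to 6, and the library labelled WT 2 lay with HOILKO 2 to 5. As labelled, the mean log2 difference of -0.34 did not exceed the spread (p = 0.206 in a two-sided exact permutation test, which can reach 0.00794 at the lowest). Differences between the groups are given with all 10 libraries as labelled and with 8, without those 2. Because they were left out on the level of the targeted gene, the 8-library values describe the remaining libraries and do not settle what the 2 libraries are. AT2 markers were high everywhere, and the summed level of 12 of them was 224440 to 261317 per M in HOILKO and 226182 to 269914 per M in WT libraries. Macrophage and monocyte markers summed to 22.2 to 52.9 per M in HOILKO and 20.4 to 49.97 per M in WT libraries over 9 genes. Of these, Fcgr1 was at 0 in 8 libraries, while Csf1r ran from 9.67 to 16.5 per M. The endothelial marker Cdh5 was at 0 in 9 libraries, while Kdr ran from 4.88 to 11.3 per M. The fibroblast marker Pdgfra was at 0 in 7 libraries, while Col3a1 ran from 0.475 to 3.68 per M. The 5 endothelial genes summed to 9.83 to 14.0 per M in HOILKO and 10.4 to 15.6 per M in WT libraries. The 6 fibroblast and smooth muscle genes summed to 1.47 to 8.34 per M in HOILKO and 5.62 to 11.1 per M in WT libraries, and their part in the results below was not tested. AT1 markers (7 genes) summed to 2123 to 2502 per M in HOILKO and 2124 to 2752 per M in WT libraries. Club cell markers (3 genes) summed to 4800 to 8857 per M in HOILKO and 4549 to 9039 per M in WT libraries, and ciliated cell markers (5 genes) to 172 to 252 per M in HOILKO and 160 to 292 per M in WT libraries. The rough depth was 7.69 to 13.2 M reads per library.

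Together the 23 genes made up 4.92%, 4.02%, 3.96%, 4.09% and 3.78% of the column total in HOILKO 1 to 5, against 3.33%, 4.36%, 5.01%, 4.55% and 5.43% in WT 2 to 6. The means were 4.15% ± 0.445 in HOILKO and 4.54% ± 0.792 in WT libraries (SD, n = 5 each), and the groups overlapped. HOILKO 2 to 5 lay at 3.96% ± 0.134 and WT 3 to 6 at 4.84% ± 0.478 (SD, n = 4 each), with no overlap. In these bulk samples, fewer mitochondria-rich cells and less mitochondrial RNA per cell cannot be told apart.

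Heavy-strand messenger RNAs held 89.6% to 92.7% of all mitochondrial signal in every library. The ribosomal RNAs held 4.12% to 6.06%, mt-Nd6 2.86% to 4.15% and the transfer RNAs 0.160% to 0.199%. Ribosomal RNAs are abundant in mitochondria, and their small share here was read from libraries labelled as polyA RNA.

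**Figure D1:**
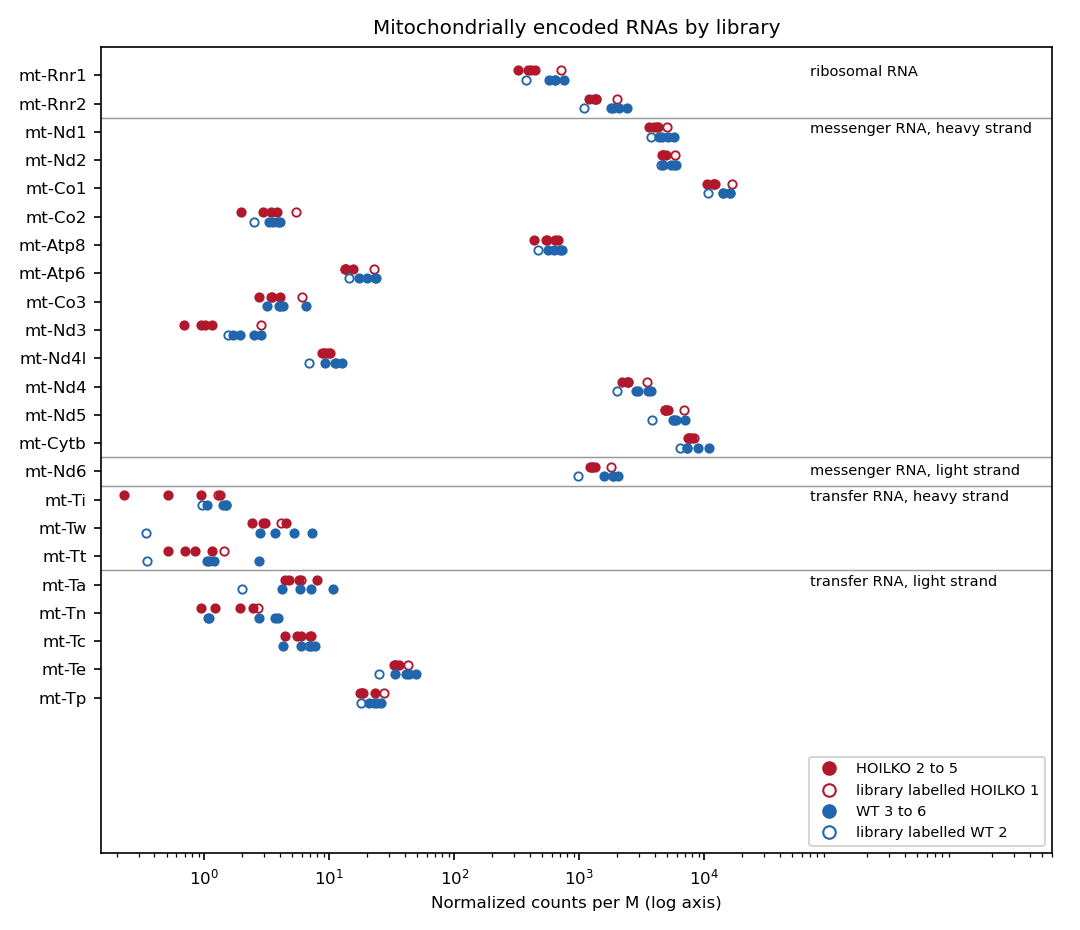
Normalized counts per M (log axis) of the 23 genes in each library, with HOILKO above WT in each row and open points for the libraries labelled HOILKO 1 and WT 2. Of the ribosomal RNAs, mt-Rnr1 lay at 322 to 443 per M in HOILKO 2 to 5 and at 574 to 758 per M in WT 3 to 6, and 5 messenger RNAs lay far below the other 8.

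The messenger RNAs fell into 2 sets far apart in level, which is a property of all 10 libraries and not of a group. Per kb of gene length, 8 of the 13 averaged 2037 to 8650 per M over the 10 libraries. The highest of these was mt-Co1, the catalytic core of complex IV, and the lowest mt-Nd4, a proton-pumping subunit of complex I. The other 5, mt-Co2, mt-Atp6, mt-Co3, mt-Nd3 and mt-Nd4l, averaged only 4.94 to 33.3 per M per kb. mt-Co2 and mt-Co3 encode core subunits of complex IV like mt-Co1, and mt-Atp6 encodes the proton-channel subunit of ATP synthase.

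These 5 were also the genes whose sequence is found almost whole in annotated nuclear transcripts. Of the 75-base windows along each gene, 97.8% (mt-Nd3) to 99.9% (mt-Co3) were also present, letter for letter, in a nuclear transcript of GENCODE M21. For the other 8 messenger RNAs the share ran between 0% and 61.5%, at 61.5% for mt-Nd4, 39.8% for mt-Co1, 5.71% for mt-Nd2 and 1.66% for mt-Nd5, and at 0% for mt-Nd1, mt-Atp8, mt-Nd6 and mt-Cytb. Both ribosomal RNAs were at 0% and averaged 549 (mt-Rnr1) and 1035 (mt-Rnr2) per M per kb. Windows of 50 and 100 bases gave the same 5 genes above 90%.

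Of the annotated copies, 7 lie in a row on the minus strand at chr1:24611535-24616197, a stretch of 4663 bases. Over the aligned bases the copies of mt-Co2 (Gm28661), mt-Atp6 (Gm10925), mt-Co3 (Gm28437), mt-Nd4l (Gm10222) and part of mt-Nd4 (Gm28439) are 100% identical to the mitochondrial genes. Of these 7 copies, Gm28438, the copy of mt-Nd3, is in the deposited table. So are 2 copies on chromosome 2, Gm13340 (of mt-Co1, 97.6% identical) and Gm13341 (of mt-Co2). Gm13340 averaged 22.1 ± 1.61 per M in HOILKO 2 to 5 and 26.6 ± 3.60 per M in WT 3 to 6 (SD, n = 4 each). For Gm13341 these were 2.37 ± 0.352 and 3.39 ± 0.862 per M. Both had log2 fold changes below 0 in the 8 and the 10 libraries. How reads that align to more than 1 place were treated is not given by the sources used here, and its part in the low levels was not tested. mt-Atp8 shares no window with a nuclear transcript and averaged 2905 per M per kb, whereas mt-Atp6, which begins inside it, averaged 26.03 per M per kb. The same contrast appeared between mt-Nd4, at 2037 per M per kb, and mt-Nd4l, at 33.3 per M per kb.

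**Figure D2:**
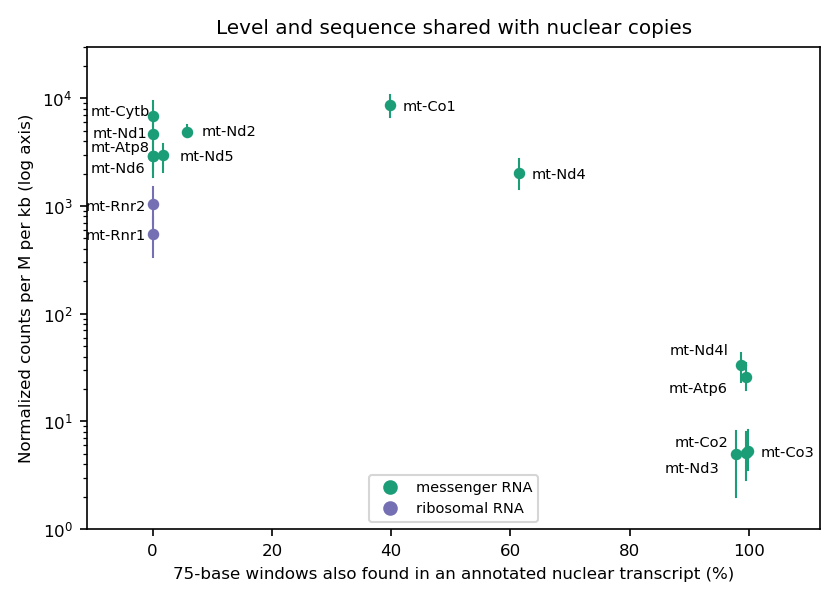
Level per kb of gene length (log axis; points, mean of 10 libraries; lines, lowest to highest library) against the share of 75-base windows also found in an annotated nuclear transcript, for 13 messenger RNAs and 2 ribosomal RNAs. The 5 genes above 97% lie at 4.94 to 33.3 per M per kb and the other messenger RNAs at 2037 to 8650.

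mt-Nd3, a small subunit of complex I, and its nuclear copy were read together because 1 base separates them. mt-Nd3 stood at 2.85, 0.948, 0.685, 1.16 and 1.02 per M in HOILKO 1 to 5, against 1.55, 1.93, 2.84, 1.71 and 2.48 per M in WT 2 to 6. Gm28438 stood at 0.834, 1.54, 1.95 and 1.47 per M in HOILKO 2 to 5 and at 0.345 per M in WT 2, and was listed at 0 in HOILKO 1 and WT 3 to 6. The copy was thus listed at 0 in the same 5 libraries that had the high Rbck1 level. The sum of both was 2.85, 1.78, 2.23, 3.11 and 2.50 per M in HOILKO 1 to 5, against 1.90, 1.93, 2.84, 1.71 and 2.48 per M in WT 2 to 6. In the 8 libraries the sum was 2.40 ± 0.555 per M in HOILKO and 2.24 ± 0.514 per M in WT (SD, n = 4 each), and the groups overlapped, while for mt-Nd3 alone they did not. Gm28438 was below the filter and was not tested. Reads of the nuclear copy and reads of mitochondrial RNA with C at this base (chrM:9461) cannot be told apart. Whether the mitochondrial DNA itself differs between the libraries was not tested. At the rough value of 1 read, mt-Nd3 rests on 8.51 to 33.2 reads per library, and Gm28438 on 7.605 to 22.2 reads in HOILKO 2 to 5 and 3.16 reads in WT 2.

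**Figure D3:**
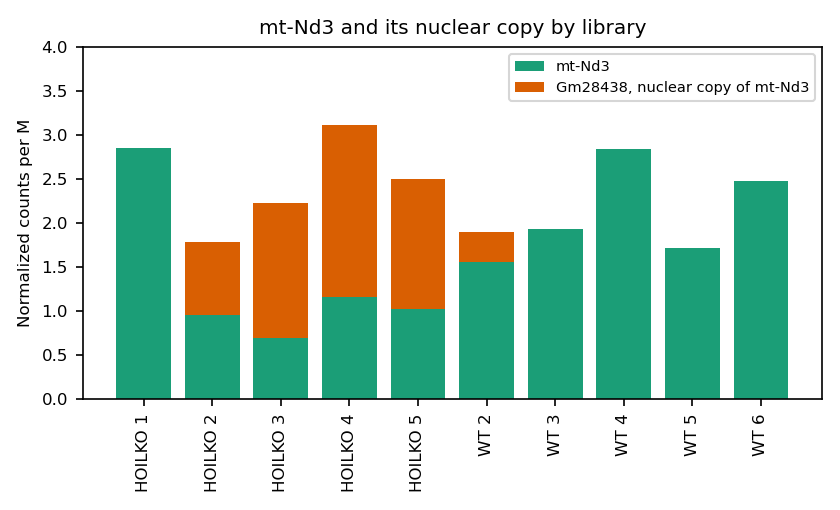
Stacked normalized counts per M of mt-Nd3 and of its nuclear copy Gm28438 in each library. Reads assigned to the copy stood at 0.834 to 1.95 per M in HOILKO 2 to 5 and 0.345 per M in WT 2. The copy was listed at 0 in the other 5 libraries, and the stacks of the groups overlap.

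The comparison of HOILKO with WT asked which of these RNAs differ with the genotype. With all 10 libraries as labelled, none of the 23 members passed an adjusted p of 0.05 in limma, as was true of all 12946 genes tested (0% called). At an unadjusted p under 0.05, 2 members were lower, mt-Rnr1 and mt-Nd3, where 3.28% of all genes were lower and 9.48% differed in either direction. Of the 23 members 21 had a log2 fold change below 0 (48.7% of all genes), and their median was -0.14 beside 0.0053 over all genes. No member had groups that did not overlap, in a comparison where 0.633% of all genes did so toward lower values.

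Without the libraries labelled HOILKO 1 and WT 2, 3 members passed toward lower values in HOILKO, the ribosomal RNAs mt-Rnr1 and mt-Rnr2 and the light-strand messenger RNA mt-Nd6. Over all genes 0.402% were called in either direction and 0.116% toward lower values. All 23 members had a log2 fold change below 0 (49.9% of all genes), with a median of -0.32 beside 0.00065 over all genes. At an unadjusted p under 0.05, 12 members were lower (5.25% of all genes), and 9 had groups that did not overlap (2.87%). These 9 were mt-Rnr1, mt-Rnr2, mt-Nd1, mt-Co1, mt-Atp6, mt-Nd3, mt-Nd4, mt-Nd5 and mt-Nd6.

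mt-Rnr1, the RNA of the small mitochondrial ribosome subunit (chrM:70-1024, plus strand), stood at 710, 443, 409, 385 and 322 per M in HOILKO 1 to 5, against 373, 636, 758, 634 and 574 per M in WT 2 to 6. HOILKO 2 to 5 and WT 2 were the 5 lowest libraries, and HOILKO 1 lay among WT 3 to 6. The means over the 8 libraries were 389.6 ± 51.2 per M in HOILKO and 650.5 ± 77.1 per M in WT (SD, n = 4 each). The log2 fold change was -0.74 ± 0.10 (SE; 95% interval -0.95 to -0.53; limma adjusted p = 0.00163), against -0.41 with all 10 libraries (adjusted p = 0.510).

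mt-Rnr2, the RNA of the large subunit (chrM:1094-2675, plus strand), stood at 1982, 1316, 1355, 1353 and 1189 per M in HOILKO 1 to 5, against 1078, 1803, 2381, 2059 and 1850 per M in WT 2 to 6. The libraries split as for mt-Rnr1. The log2 fold change in the 8 libraries was -0.63 ± 0.09 (SE; limma adjusted p = 0.00293), against -0.33 with all 10 (adjusted p = 0.573). HOILKO held 64.4% of the WT mean of mt-Rnr2 in the 8 libraries, and 59.9% of that of mt-Rnr1.

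mt-Nd6, a complex I subunit and the only messenger RNA on the light strand (chrM:13552-14070, minus strand), stood at 1779, 1258, 1225, 1332 and 1264 per M in HOILKO 1 to 5, against 972, 1586, 2031, 1843 and 1844 per M in WT 2 to 6. The libraries split in the same way, with WT 2 the lowest of all. In the 8 libraries the log2 fold change was -0.52 ± 0.08 (SE; limma adjusted p = 0.00671), and with all 10 it was -0.24 (adjusted p = 0.647). mt-Nd6 lies opposite the region at the end of mt-Nd5, with which its annotated ends share 14 bases. The strand setting of the counting is not given by the sources used here, so reads of mt-Nd6 and of heavy-strand RNA across it cannot be told apart. Per kb, mt-Nd6 was 88.5% to 92.3% of mt-Nd5 in HOILKO 1 to 5 and 90.1% to 126% in WT 2 to 6. Without HOILKO 1 and WT 2 it was 88.5% to 92.3% in HOILKO and 93.3% to 126% in WT libraries.

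Among heavy-strand messenger RNAs 0 of 12 passed in either set of libraries. Of the 12, 7 were lower in the 8 libraries at an unadjusted p under 0.05, and mt-Atp6 and mt-Nd4 lay nearest to the threshold with adjusted p of 0.0504 and 0.0512. mt-Nd4 stood at 3486, 2433, 2429, 2414 and 2208 per M in HOILKO 1 to 5, against 2002, 2961, 3767, 2823 and 3540 per M in WT 2 to 6. Its log2 fold change was -0.46 ± 0.10 (SE) in the 8 libraries and -0.20 with all 10.

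mt-Co1 stood at 16595, 12203, 11905, 11679 and 10419 per M in HOILKO 1 to 5, against 10655, 14165, 15874, 14191 and 15961 per M in WT 2 to 6. Its groups did not overlap in the 8 libraries, and its log2 fold change there of -0.38 ± 0.11 (SE) had an adjusted p of 0.163 in limma, against -0.18 with all 10 (adjusted p = 0.728). mt-Cytb, the cytochrome b of complex III and the last messenger RNA on the strand, had groups that overlapped. It stood at 8290, 7337, 7511, 7976 and 7529 per M in HOILKO 1 to 5, against 6338, 7221, 8946, 7216 and 10895 per M in WT 2 to 6, with a log2 fold change of -0.15 in the 8 libraries (limma adjusted p = 0.624) and -0.05 with all 10. Its highest library was WT 6 and its lowest WT 2.

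Among the other complex I messenger RNAs, mt-Nd5, the large membrane subunit, stood at 6842, 4885, 4863, 5087 and 4813 per M in HOILKO 1 to 5, against 3791, 5742, 5645, 5967 and 6947 per M in WT 2 to 6. In the 8 libraries the log2 fold changes were -0.30 for mt-Nd5, -0.30 for mt-Nd1 and -0.20 for mt-Nd2, with limma adjusted p of 0.192, 0.226 and 0.376. With all 10 they were -0.07 for mt-Nd5, -0.15 for mt-Nd1 and -0.09 for mt-Nd2. mt-Nd1 ran between 3615 and 5007 per M over HOILKO libraries and between 3741 and 5676 per M over WT libraries, and mt-Nd2 between 4569 and 5828 per M in HOILKO and 4517 and 5875 per M in WT.

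mt-Atp8, which ranged from 436 to 674 per M in HOILKO and 464 to 726 per M in WT libraries, overlapped between the groups, with a log2 fold change of -0.21 in the 8 libraries (adjusted p = 0.467) and -0.12 with all 10. For the 5 genes shared almost whole with nuclear transcripts, log2 fold changes in the 8 libraries were -0.91 for mt-Nd3, -0.57 for mt-Atp6, -0.32 for mt-Co3, -0.27 for mt-Co2 and -0.22 for mt-Nd4l. With all 10 they were -0.58 for mt-Nd3, -0.32 for mt-Atp6, -0.14 for mt-Co3, -0.02 for mt-Co2 and -0.08 for mt-Nd4l, and mt-Co2 was just above 0 with equal column totals. mt-Atp6 ran from 13.3 to 22.7 per M in HOILKO and from 14.3 to 23.8 per M in WT libraries, and mt-Nd4l from 8.81 to 10.2 per M in HOILKO and from 6.91 to 12.7 per M in WT libraries. These fold changes concern the reads that were assigned to these genes.

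**Figure D4:**
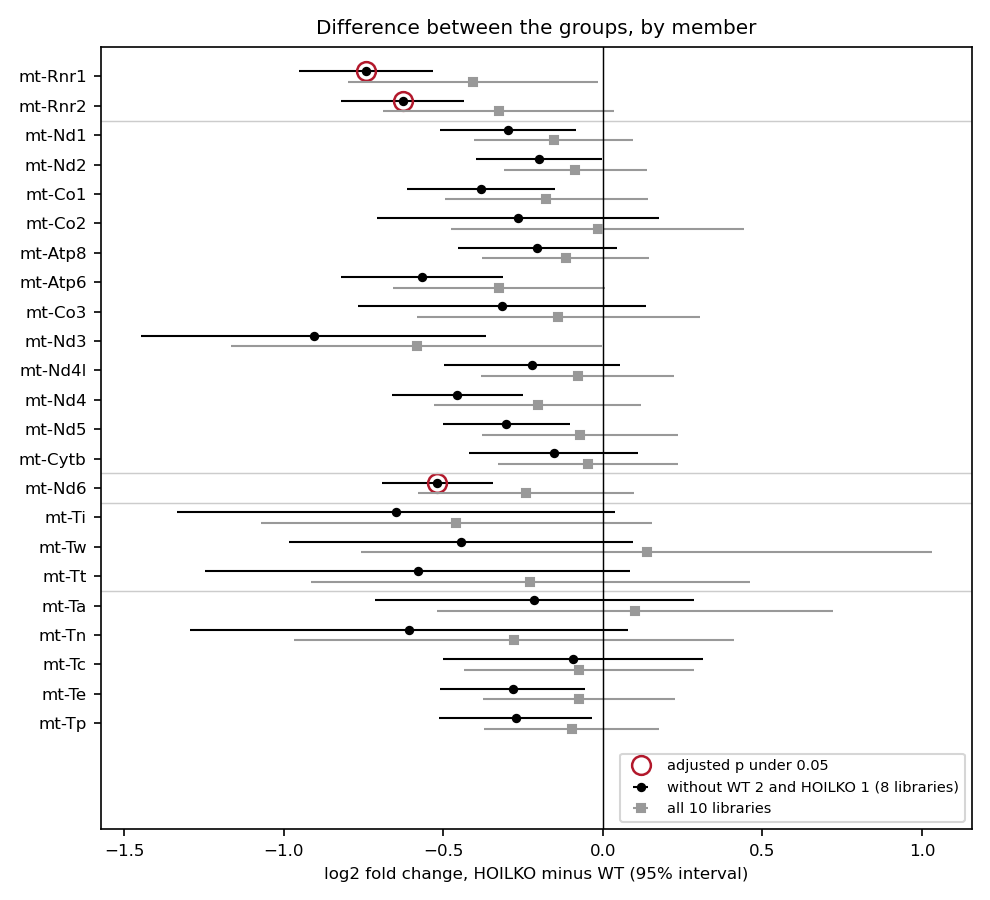
Log2 fold changes of the 23 members, HOILKO minus WT, with 95% intervals from limma; black, 8 libraries without those labelled HOILKO 1 and WT 2, grey, all 10; red rings mark an adjusted p under 0.05. The rings lie at mt-Rnr1 (-0.74), mt-Rnr2 (-0.63) and mt-Nd6 (-0.52), and all 23 black points lie below 0.

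Of the 8 transfer RNAs, 3 on the heavy strand (mt-Ti, mt-Tw, mt-Tt) and 5 on the light strand (mt-Ta, mt-Tn, mt-Tc, mt-Te, mt-Tp), 0 passed in the 10 or the 8 libraries. mt-Te stood at 42.7, 36.4, 33.2, 33.9 and 32.7 per M in HOILKO 1 to 5, against 25.1, 41.3, 49.7, 33.5 and 43.2 per M in WT 2 to 6, with a log2 fold change of -0.28 in the 8 libraries (limma adjusted p = 0.278) and -0.07 with all 10. mt-Tp stood at 27.5, 18.7, 18.3, 23.2 and 17.4 per M in HOILKO 1 to 5, against 17.9, 20.8, 26.03, 22.9 and 24.3 per M in WT 2 to 6, with a log2 fold change of -0.27 in the 8 libraries (limma adjusted p = 0.317) and -0.10 with all 10. Their groups overlapped.

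The remaining 6 transfer RNAs averaged between 0.863 (mt-Ti) and 6.02 (mt-Tc) per M in the 5 HOILKO libraries and between 1.28 (mt-Ti and mt-Tt) and 6.39 (mt-Tc) per M in the 5 WT libraries. All 8 had log2 fold changes below 0 in the 8 libraries, from -0.65 for mt-Ti to -0.09 for mt-Tc, and the groups overlapped for each. With all 10 the log2 fold changes ran from -0.46 for mt-Ti to 0.14 for mt-Tw. Mature transfer RNAs carry no polyA tail. mt-Ti and mt-Tw overlap mt-Nd1 and mt-Nd2 at their annotated ends.

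Set against the heavy-strand messenger RNAs, the ribosomal RNAs were 5.77% in HOILKO 1, 4.83% in HOILKO 2, 4.91% in HOILKO 3, 4.72% in HOILKO 4 and 4.47% in HOILKO 5. The same ratio was 4.60% in WT 2, 5.98% in WT 3, 6.75% in WT 4, 6.76% in WT 5 and 4.95% in WT 6. HOILKO 2 to 5 averaged 4.73% ± 0.194 and WT 3 to 6 averaged 6.11% ± 0.854 (SD, n = 4 each), and WT 6 lay just above HOILKO 3. mt-Nd6 was 3.41% to 3.82% of the heavy-strand messenger RNAs in HOILKO 1 to 5 and 3.08% to 4.63% in WT 2 to 6. Without HOILKO 1 and WT 2 the mt-Nd6 ratio was 3.41% to 3.74% in HOILKO and 3.77% to 4.63% in WT libraries. There WT 6 lay just above HOILKO 5.

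**Figure D5:**
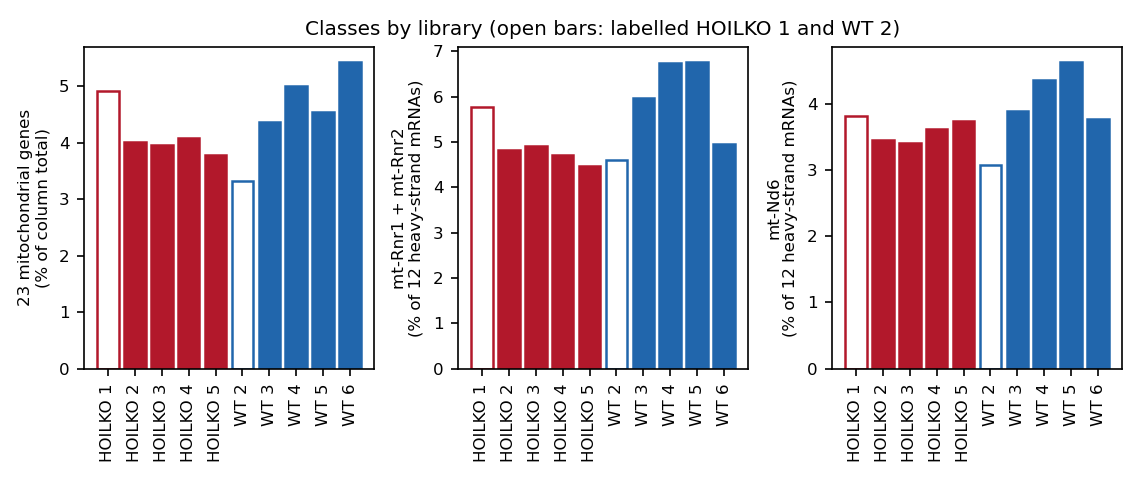
Share of the column total held by the 23 genes, and ribosomal RNAs and mt-Nd6 as a percentage of the 12 heavy-strand messenger RNAs, by library (HOILKO left, WT right; open bars are the libraries labelled HOILKO 1 and WT 2). The ribosomal RNA ratio was 4.47% to 4.91% in HOILKO 2 to 5 and 4.95% to 6.76% in WT 3 to 6.

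The 2 runs of mouse numbers gave different pictures. In the second run, which holds neither of the libraries with the contrary Rbck1 level, the same 3 members passed in limma, mt-Rnr1 at -0.89, mt-Rnr2 at -0.72 and mt-Nd6 at -0.55 (adjusted p = 0.00230, 0.0128 and 0.0298), where 0.317% of all genes were called and 0.17% toward lower values. There 22 of 23 members were below 0 (48.2% of all genes), with mt-Tc at 0.08 and mt-Atp8 at -0.0036. In the first run as labelled, which holds both, 0 members and 0% of all genes passed with limma, and 4 of 23 members lay below 0 (49.7% of all genes). Xist, the RNA of the inactive X chromosome in female cells, was at 55.5 and 89.1 per M in HOILKO 2 and 3 and at 39.0 per M in WT 2. It was at 1.44 to 3.16 per M in the other 7 libraries, the second run included. In the first run the libraries with high Xist were those with the low Rbck1 level. Among the 8 libraries the high Xist levels were those of HOILKO 2 and 3. Genotype and sex, as read from Xist, therefore cannot be told apart among the first-run libraries of these 8. The second run lies within the same 8 libraries, and the part of sex in the results was not tested.

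Genes in the nucleus that act on these RNAs showed no call, in fits that called 0% (10 libraries) and 0.402% (8 libraries) of all genes. Their count of 0 thus lay near the share over all genes. Of 12 tested genes for mitochondrial DNA replication and packaging, 7 for transcription, 22 for RNA processing and modification, 20 for RNA stability, adenylation and decay, and 22 aminoacyl-tRNA synthetases, 0 passed with limma in the 10 or the 8 libraries, and list medians lay between -0.04 and 0.04 in the 8. Polg, the mitochondrial DNA polymerase, averaged 114 ± 9.78 per M in HOILKO and 93.8 ± 5.54 per M in WT (SD, n = 4 each), with a log2 fold change of 0.28 in the 8 libraries (adjusted p = 0.155) and 0.23 with all 10 (adjusted p = 0.384). Trmt10c, a subunit of the nuclease that cuts the 5′ ends of transfer RNAs, averaged 6.06 ± 0.769 per M in HOILKO and 8.19 ± 0.721 per M in WT (log2 fold change -0.41, adjusted p = 0.251, against -0.25 with all 10). Of the same processing list, Mto1 and Cdk5rap1 went the other way. Their log2 fold changes in the 8 libraries were 0.36 and 0.57 (limma adjusted p = 0.292 and 0.304), against 0.28 and 0.40 with all 10. At an unadjusted p under 0.05 in the 8 libraries, 1 replication gene was higher and 1 lower, 2 processing genes were higher and 1 lower, and 1 stability gene was lower, where 7.84% of all genes were higher and 5.25% lower. Rexo2, an oligoribonuclease in mitochondria, averaged 31.8 ± 1.69 per M in HOILKO and 37.4 ± 2.84 per M in WT (log2 fold change -0.23, limma adjusted p = 0.294, against -0.22 with all 10). With all 10 libraries as labelled its groups did not overlap, as for 0.633% of all genes toward lower values.

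RNAs that lack a regular polyA tail were set beside the members, since the libraries are labelled as polyA RNA. Of 20 such genes 11 were in the table and 8 were tested, and Hist1h1c, a linker histone, was the 1 that passed in the 8 libraries, lower at -0.71 (limma adjusted p = 0.0353), against -0.66 with all 10 (adjusted p = 0.269). In the 8 libraries 7 of the 8 tested genes lay below 0 with a median log2 fold change of -0.28, beside -0.32 for the 23 members, and 4 were lower at an unadjusted p under 0.05, against 5.25% of all genes. The 1 above 0 was Neat1, at 0.44 there and 0.41 with all 10. With all 10 libraries 4 of the 8 lay below 0, with a median of -0.14, and 3 were lower at that p, against 3.28% of all genes. Hist1h1c stood at 12.9, 11.97, 11.1, 8.91 and 12.9 per M in HOILKO 1 to 5, against 18.1, 14.96, 21.9, 17.9 and 19.97 per M in WT 2 to 6. The libraries labelled HOILKO 1 and WT 2 thus both stayed with their labelled groups. Gm42418, which overlaps the ribosomal RNA repeat, ranged from 1494 to 4616 per M in HOILKO and from 2404 to 3672 per M in WT libraries, with a log2 fold change of -0.07 in the 8 libraries and 0.01 with all 10, and Malat1 had -0.13 in the 8 and 0.05 with all 10. Their part in the ribosomal RNA result was not tested.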

How the data were processed

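RNA of 10 libraries, 5 HOILKO and 5 WT, was measured as read counts per gene that the authors normalized and deposited as 1 table of 16154 Ensembl IDs. As deposited, the signal is nowhere negative, and the column totals of 6.94 to 7.43 M show that depth had been evened out. Libraries were made with the NEBNext Ultra kit, per the labels' protocols, and bcl2fastq 2.17, edgeR 3.14.0 and the build mm10 appear in the submitters' processing notes. The aligner, annotation, strand setting and normalization formula were not given in the sources used here. All values were divided by 1 constant, the mean column total (7.14 M). Tests used limma-trend (limma 3.58.1 in R 4.3.3) on log2(value per M + 0.5), two-sided, HOILKO minus WT, for the 12946 genes that reached 1 per M in 5 or more libraries, with Benjamini-Hochberg adjustment over all of them and a threshold of 0.05. Fold changes on this scale understate changes of low genes. The p-values measure the spread between libraries, taken as separate mice from the mouse numbers. Members, lists and the choice to repeat without 2 libraries were made with earlier results of these data known. All members were named, and from each other list up to 4 genes with the smallest p. Correlations between members across libraries are not given, since for mt-Rnr1 the libraries fall into 2 separate sets (322 to 443 and 574 to 758 per M). Not every member split in this way, and mt-Cytb did not. Windows were compared with annotated transcripts of GENCODE M21, not with a genome. The fits were tested on simulated data. Alternatives were other pseudocounts, filters and scalings, the replicate block, the run as a covariate, array weights, each run alone and each library left out. Figures came from matplotlib 3.10.9 in Python 3.11.15.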

Additional observations from a re-analysis of the deposited data

Results flagged for a closer look

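In groups of 5, a library was marked when its gap to the nearest other library, divided by the range, passed the 95% critical value of Dixon's test. This was checked for 31 measures in both groups, 62 groups in all, and 13 passed. A single measure passes about 1 in 20 times by chance. The measures share libraries, and the sums and ratios are made from the members, so the 13 are not separate findings. In 12 of the 13 the library labelled HOILKO 1 was far above the other HOILKO libraries, and the other 1 is the Rbck1 level of the library labelled WT 2.

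HOILKO 1 stood apart at 1982 per M for mt-Rnr2, where the other HOILKO libraries reached at most 1355 per M. It stood apart at 1779 per M for mt-Nd6, at 3486 per M for mt-Nd4, at 6842 per M for mt-Nd5, at 16595 per M for mt-Co1 and at 5828 per M for mt-Nd2. It did so at 22.7 per M for mt-Atp6 and at 2.85 per M for mt-Nd3. By class it stood apart with 2692 per M for the ribosomal RNAs, 46642 per M for the heavy-strand messenger RNAs and 92.7 per M for the transfer RNAs, and its share of all mitochondrial RNA was 4.92% of the column total. Rbck1 in the library labelled WT 2 was 29.7 per M, where the other WT libraries lay between 56.1 and 57.8 per M.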

How the results depend on the processing

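Depth limits the lowest members, mt-Ti, mt-Tt and mt-Nd3, which at the rough value of 1 read rest on 2.07 to 20.1, 3.18 to 24.1 and 8.51 to 33.2 reads per library. With all 10 libraries, genes called numbered 259 with the replicate block (shared numbers 2 to 5), 1 with the run as a covariate, 52 without HOILKO 1 and WT 2 and 41 in the second run. Members called numbered 3 in each of the last 2 and 0 with the block. The Rbck1 log2 difference had an unadjusted p under 0.05 at -0.44 with the block (limma adjusted p = 0.0567) and -0.43 with array weights (limma adjusted p = 0.335). The same held at -0.67 without the 2 libraries (limma adjusted p = 0.00167), and without HOILKO 1 or WT 2 alone. Those 2 libraries were picked on their Rbck1 level, so fits without either or both do not test Rbck1. The block, on numbers 2 to 5, also leaves out HOILKO 1. With single libraries left out, genes called were 0 to 4 and the Rbck1 difference was -0.52 to -0.24.

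In the 8 libraries the 3 members kept their calls under every alternative run except no filter on low values, where 10 genes and 0 members passed (adjusted p = 0.0969 for mt-Rnr1, 0.112 for mt-Rnr2 and 0.123 for mt-Nd6). With a filter at 5 per M, array weights or the block, 5 members passed, mt-Atp6 and mt-Nd4 added, and the block called 406 genes. Here the block used only the shared numbers 3 to 5, so it also left out HOILKO 2 and WT 6. Leaving out single libraries gave 19 (without WT 5) to 100 genes (without WT 6), with 26 without WT 4, 32 without HOILKO 3 and 84 without HOILKO 4, and 3 to 5 members (5 without WT 3). mt-Tc turned to 0.12 with the block. Deviations of same-numbered libraries correlated across genes at r = 0.0265 to 0.314, and not every library did so best with its own number. These values do not settle whether same-numbered libraries were paired, and the main fits used no pairing.

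Directions of members that passed no test with 10 libraries turned as follows; the cause was not tested. mt-Co2 turned to 0.00537 with equal column totals and 0.000316 with equal totals without mitochondrial rows, and mt-Cytb to 0.0409 with the block. Without HOILKO 1 and WT 2, mt-Ta turned to -0.21 and mt-Tw to -0.44, and in the second run mt-Ta to -0.33, mt-Tw to -0.43 and mt-Tc to 0.078. In the first run as labelled, 17 members turned upward: mt-Rnr1 0.051, mt-Rnr2 0.13, mt-Nd1 0.068, mt-Nd2 0.048, mt-Co1 0.13, mt-Co2 0.37, mt-Atp6 0.082, mt-Co3 0.094, mt-Nd4l 0.031, mt-Nd4 0.17, mt-Nd5 0.23, mt-Nd6 0.17, mt-Cytb 0.19, mt-Te 0.21, mt-Tn 0.15, mt-Tp 0.13 and mt-Tt 0.29.

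With single libraries left out, some directions turned among values that passed no test. With 10 libraries the log2 fold change ran from -0.17 to 0.15 for mt-Co2, -0.29 to 0.00065 for mt-Co3, -0.13 to 0.067 for mt-Cytb, -0.21 to 0.0025 for mt-Nd4l and -0.21 to 0.012 for mt-Nd5. It ran from -0.20 to 0.34 for mt-Ta, -0.20 to 0.023 for mt-Tc, -0.22 to 0.026 for mt-Te, -0.46 to 0.022 for mt-Tt and -0.38 to 0.43 for mt-Tw. With 8 libraries it ran from -0.41 to 0.0053 for mt-Ta and -0.25 to 0.017 for mt-Tc.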
